A study of Oryza sativa with 24 samples.

Results

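The 200 steadiest genes of the young rice panicle were followed through pollen development in IR64, an indica variety of Oryza sativa. They were chosen by their measured values. A gene had to average at least 50 CPM (a gene's count as a share of the column total, in counts per 1000000) over 21 distinct libraries, and the 200 with the lowest coefficient of variation (CV, the SD over the libraries as a percentage of the mean) were taken. Of 36099 gene identifiers in the table, 5654 reached that mean, and the 200 were 3.54% of these. Because the same libraries chose the genes, a low spread in them is a description and not a finding.

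The libraries came from plants edited in tps2, tps3 and tps6 (the triple mutant, labelled tps2/tps3/tps6) and from wild-type plants of the same variety, all grown in pots in growth chambers. Young panicle tissue was sampled at stage 5 (pollen mother cells form), stage 6 (their meiosis), stage 7 (pollen fills) and stage 8 (pollen matures), with 3 labelled replicates per genotype and stage. The mutant and wild-type columns were identical in every row for stage 6 replicate 3, stage 7 replicate 2 and stage 7 replicate 3, so each of these 3 libraries was entered once with its genotype unresolved. This left 9 mutant and 9 wild-type libraries: 3 of each genotype at stages 5 and 8, 2 of each at stage 6 and 1 of each at stage 7. The labels do not state the edited alleles, the number of edited lines or the plant age. Total counts ran from 11398861 to 15860931 per library, and each of the 200 genes had at least 449 counts in every library.

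A panicle at these stages mixes glumes, lemma, palea, anther walls, tapetum and the male cells inside, and the male cells pass from division through meiosis to storage of starch and lipid. Class II trehalose phosphate synthases are proteins related to the enzyme that makes trehalose 6-phosphate, a sugar signal in plants. Genes that hold a constant share of the RNA in such a changing organ are often called housekeeping genes and serve as references for quantitative PCR, where actin, ubiquitin and elongation factor genes are common choices. In bulk tissue a constant level can also come from opposite changes in different cell types, and fewer cells of a type cannot be told apart from less RNA per cell.

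The files pair the identifiers with no gene names. None of the 36099 identifiers matched a RefSeq table of another rice assembly (ASM3414082v1). Symbols of 9 common rice reference genes, 15 meiosis and tapetum genes and the 3 edited genes also matched 0 identifiers, so neither the tissue nor the edit was checked by marker. It is therefore not stated here which functions the 200 genes have, nor whether a classical reference gene is among them. A few identifiers are given below as examples.

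The CV of the 200 genes ran from 5.66% to 12.0% with a median of 10.6%. Among the other 5454 genes of at least 50 CPM it ran from 12.0% to 252% with a median of 27.8%. Between a gene's lowest and highest library the level differed by 1.23-fold to 1.86-fold among the 200, with a median of 1.48-fold, and by a median of 2.66-fold among the other genes. All 200 stayed within 2-fold over the 21 libraries, as did 1104 (20.2%) of the other genes. The limit cut through a continuous distribution. The last genes inside it were OsIR64_08g0003340 (CV 12.00%) and OsIR64_08g0023320 (12.04%), and the first outside were OsIR64_03g0035940 (12.04%) and OsIR64_03g0037080 (12.06%).

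**Figure D1:**
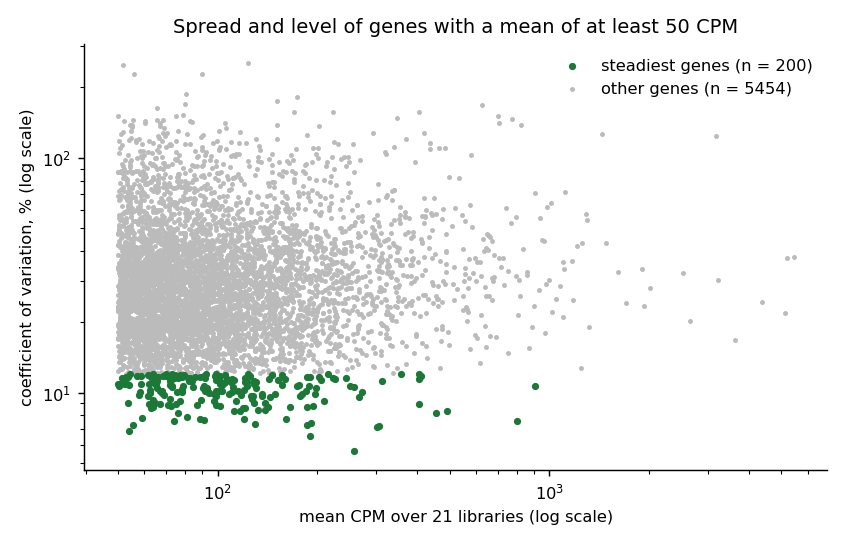
Coefficient of variation (%) against mean CPM over 21 libraries, both on log scales, for the 5654 genes that averaged at least 50 CPM. The 200 steadiest genes (green) lie at 5.66% to 12.0% at mean levels of up to 905 CPM, below the 5454 other genes (grey).

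The steadiest genes were spread over the range of counts. Their mean CPM ran from 50.1 to 905 with a median of 99.1, against a median of 86.7 in the other genes. They made up 3.07% of the genes at 50 to 100 CPM, 4.54% at 100 to 200 CPM, 3.14% at 200 to 400 CPM and 4.12% above 400 CPM. Among the 100 genes with the highest mean CPM, 2 belonged to the 200. CPM is not corrected for gene length, which the files do not give, so these are ranks by share of counts and not by transcripts.

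OsIR64_10g0007590 had the lowest CV, with a mean of 257 ± 14.5 CPM (SD over 21 libraries). At stage 5 it had 255, 269 and 253 CPM in the mutant and 253, 272 and 254 CPM in wild type. At stage 6 it had 281 and 281 CPM in the mutant, 266 and 273 CPM in wild type and 267 CPM in the unresolved library. The mutant had its highest values here, while wild type overlapped its own stage 5 values. At stage 7 it had 228 CPM in the mutant, 246 CPM in wild type and 248 and 252 CPM in the unresolved libraries. At stage 8 it had 248, 262 and 260.2 CPM in the mutant and 258, 235 and 234 CPM in wild type. The genotypes overlapped at stages 5 and 8, and by stage the mean was 259 ± 8.65 CPM (SD, n = 6), 274 ± 7.54 (n = 5), 244 ± 10.5 (n = 4) and 249 ± 12.8 (n = 6) from stage 5 to stage 8. Stages 6 and 7 did not overlap in this gene, although its CV was the lowest of all.

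OsIR64_02g0037440 came next, with a CV of 6.56% and a mean of 190 ± 12.5 CPM (SD over 21 libraries). In the mutant it had 199, 211 and 196 CPM at stage 5, 211 and 206 CPM at stage 6, 190.4 CPM at stage 7 and 190.2, 182 and 199 CPM at stage 8. In wild type it had 202, 191 and 172 CPM at stage 5, 194 and 182 CPM at stage 6, 187 CPM at stage 7 and 165, 174 and 184 CPM at stage 8. The mutant libraries averaged 198 ± 9.96 CPM and the wild-type libraries 184 ± 11.6 CPM (SD, n = 9 each), and the ranges overlapped. The unresolved libraries had 188 CPM at stage 6 and 179 and 180.1 CPM at stage 7.

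The members with the most counts were OsIR64_04g0017870 and OsIR64_12g0014190, the 41st and 53rd genes by mean CPM. OsIR64_04g0017870 averaged 905 ± 96.2 CPM (SD over 21 libraries) and had its lowest mean at stage 8. There it had 759, 689.6 and 832 CPM in the mutant, against 939, 922 and 733 CPM in wild type. By stage it averaged 919 ± 87.4 CPM (SD, n = 6), 960 ± 55.6 (n = 5), 954 ± 40.2 (n = 4) and 813 ± 103 (n = 6) from stage 5 to stage 8. OsIR64_12g0014190 averaged 797 ± 60.6 CPM (SD over 21 libraries) with nearly the same mean at each stage but a growing spread. Its values were 766 ± 11.6 CPM (SD, n = 6) at stage 5, 807 ± 36.8 (n = 5) at stage 6, 800.3 ± 81.4 (n = 4) at stage 7 and 817 ± 87.9 (n = 6) at stage 8. At stage 8 it had 874, 944 and 734 CPM in the mutant, against 845, 790.0 and 713 CPM in wild type, so the genotypes overlapped.

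**Figure D2:**
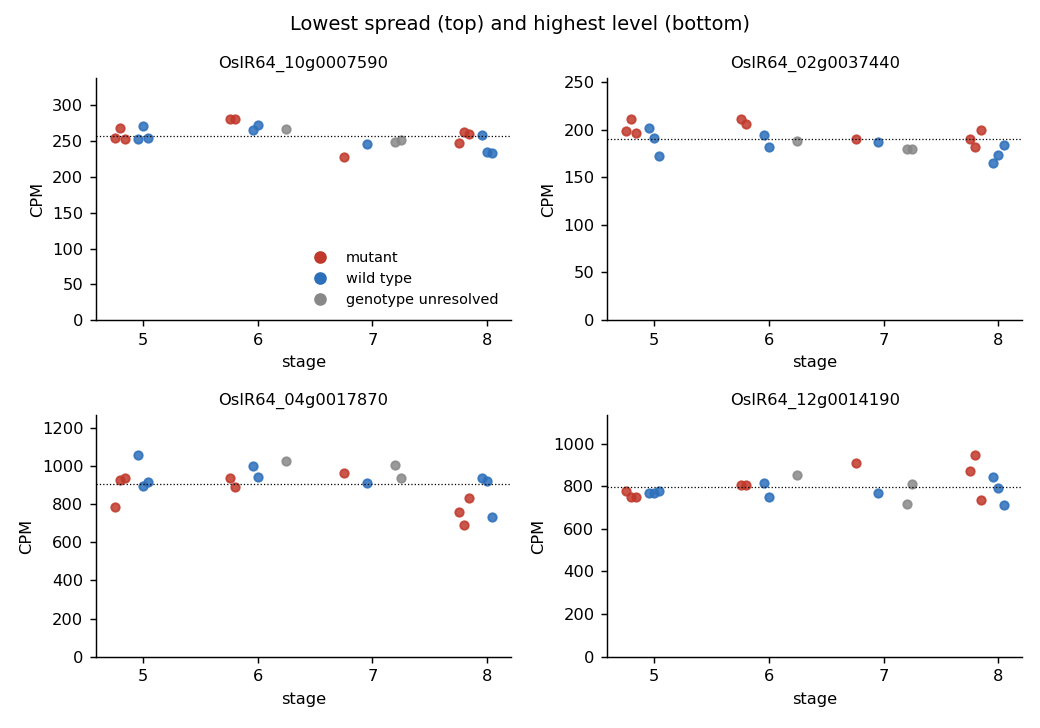
CPM by stage of the 2 genes with the lowest spread (top) and the 2 with the most counts (bottom), each point 1 library, with mutant left, wild type in the middle and libraries of unresolved genotype right within a stage. The dotted line is the mean of 21 libraries. OsIR64_12g0014190 spreads from a range of 751 to 777 CPM at stage 5 to 713 to 944 CPM at stage 8.

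Together the 200 genes took a nearly fixed share of each library in CPM. The rule chose genes of low spread in CPM, so the low spread of their sum is a description. Their summed level was 25985 CPM on average, with a CV of 1.90% over the 21 libraries, and it ran from 2.50% to 2.68% of the counts. By stage the sum was 26137 ± 175 CPM (SD, n = 6), 26564 ± 274 (n = 5), 25641 ± 256 (n = 4) and 25578 ± 438 (n = 6) from stage 5 to stage 8. In CPM it was highest at meiosis, but not on the TMM scale described below. It averaged 26018 ± 545 CPM in the mutant and 25920 ± 472 CPM in wild type (SD, n = 9 each), a difference smaller than the SD of either. The other 5454 genes together took 68.0% to 74.5% of the counts and their sum had a CV of 2.37%. CPM fixes the total of each library, so a sum over most of the counts can vary little whatever its genes do. The 2.37% is therefore no measure to set beside the 1.90% of the 200.

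Single libraries departed from the gene means in scatter more than in level. The median departure of the 200 genes from their means ran from -3.88% (mutant stage 8 replicate 1) to 3.56% (mutant stage 6 replicate 2). The median absolute departure of a gene from its mean was 5.86% to 10.5% by library among the 200 and 12.1% to 28.9% among the other genes. It was widest in mutant stage 8 replicate 2, which was the farthest library for 38 of the 200 genes and lay more than 20% off for 35 of them. The 6 stage 8 libraries, 28.6% of all, were farthest for 99 genes (49.5%). The 4 stage 7 libraries, 19.0% of all, were farthest for 26 genes (13.0%). When mutant stage 8 replicate 2 was left out, the same rule picked 153 of the 200 again, and it picked 174 to 192 when any other library was left out. A total of 65 genes stayed within 20% of their mean in all 21 libraries.

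**Figure D3:**
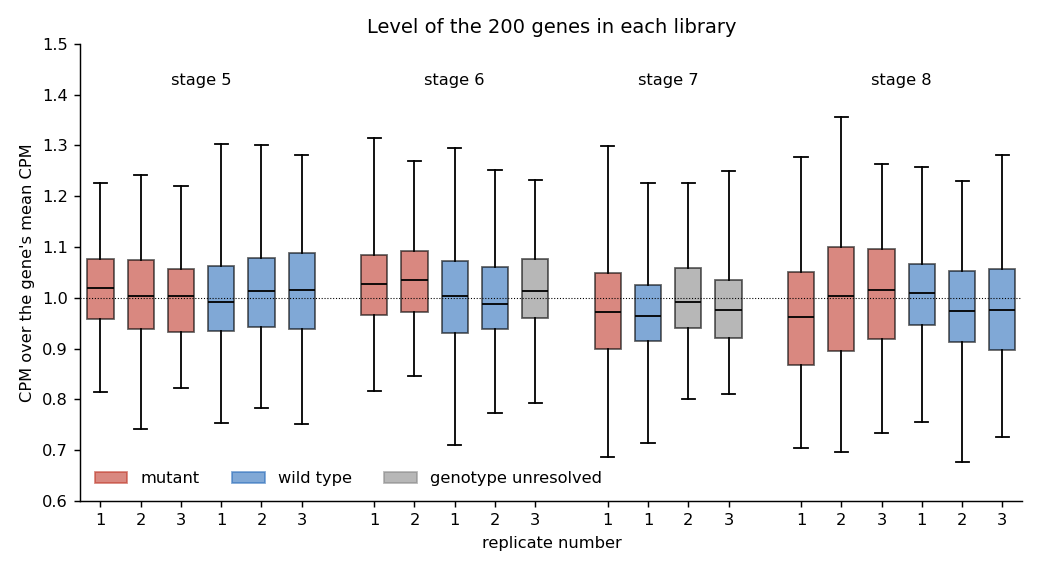
CPM of each of the 200 genes divided by its mean over 21 libraries, by library; boxes span the quartiles, the line is the median and whiskers reach the lowest and highest gene. Median departures run from -3.88% to 3.56%, and mutant stage 8 replicate 2 has the widest scatter.

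Replicates of a group were closer in the steadiest genes than in the other genes at each of these stages. On the log2 scale the 200 had a median replicate SD of 0.11, 0.10 and 0.15 at stages 5, 6 and 8, against 0.15, 0.19 and 0.27 among the other genes. In the mutant the 200 had 0.08, 0.08 and 0.16 at these stages, and in wild type 0.12, 0.09 and 0.11. The wider spread at stage 8 was thus seen in the mutant, and wild type had nearly the same value at stages 5 and 8. The other genes had 0.10, 0.09 and 0.30 in the mutant and 0.17, 0.23 and 0.19 in wild type. The wider mutant spread at stage 8 was therefore not particular to the 200, and at mutant stage 6 they were close to the other genes. Stage 7 had 1 library of each resolved genotype and gave no value. Counting error was also set against the CV over all 21 libraries, which includes differences between stages. Reads alone would give a CV of 0.94% to 3.997% among the 200, which accounted for a median of 7.65% of the squared CV and at most 31.5%. These values cover counting error only.

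The largest median share of the variation in the 200 genes lay between replicates. With the log2 CPM of the 18 libraries of resolved genotype split by stage, genotype, their interaction and replicates, stage took a median of 28.1% of the variation in the 200, against 70.2% in the other genes. Genotype took 4.06% against 1.94%, the interaction 11.2% against 4.59%, and spread within groups 48.6% against 18.5%. Stage has 17.6% of the degrees of freedom, genotype 5.88%, the interaction 17.6% and replicates 58.8%. At the median of the 200, stage thus stood above its share of degrees of freedom. Genotype, the interaction and replicates stood below theirs. A small share is skewed over genes, so its median can lie below that yardstick without being less than chance gives. For genotype the upper quartile was 10.7%. Stage reached 83.9% of the variation in 1 of the 200, so a low CV did not mean that no stage trend was present. A total of 92 of the 200 had more than 50% of their variation within groups, against 11.3% of the other genes. The rule kept genes of low spread over the stages, so this contrast is a description.

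**Figure D4:**
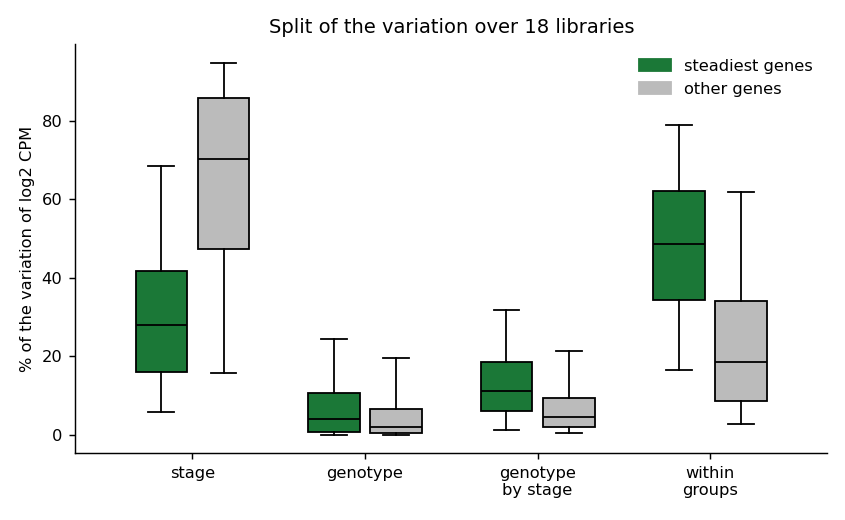
Share of each gene's variation in log2 CPM over 18 libraries, in %, split by stage, genotype, genotype by stage and replicates within groups, for the 200 steadiest genes (green, left of each pair) and other genes of at least 50 CPM (grey). Boxes span the quartiles and whiskers the 5th to 95th percentile; the median for stage is 28.1% in the steadiest genes and 70.2% in the others.

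Stage means of the 200 genes differed by 1.03-fold to 1.32-fold between the lowest and the highest stage, with a median of 1.14-fold, against a median of 1.77-fold in the other genes. They stayed within 1.2-fold for 158 of the 200 and for 251 (4.60%) of the others. In CPM the stage of the highest mean was stage 5 for 60 genes, stage 6 for 55, stage 7 for 39 and stage 8 for 46, against 40.7%, 14.0%, 19.4% and 26.0% of the other genes. The lowest mean was at stage 5 for 46 genes, at stage 6 for 19, at stage 7 for 75 and at stage 8 for 60, against 29.6%, 6.16%, 27.7% and 36.6% of the other genes. The place of stage 7 depended on the scale, since the median member lay at -2.19% from its own mean there in CPM and at 4.81% on the TMM scale described below. Stage means went up at every step in 11 genes and down at every step in 15.

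Adjacent stages were compared in a fit of all genes to the 21 libraries, with edgeR's quasi-likelihood test and TMM scaling, which resets each library's total by a trimmed mean of gene ratios. The call threshold was a Benjamini-Hochberg adjusted p of 0.05. The rule for the genes used these libraries, so the counts below are read next to the background and support nothing. All 200 passed the filter on low counts in each comparison.

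Of the 200 genes, 10 were called at stage 6 against stage 5, all higher, whereas 19.6% of 23023 genes tested were called, 13.8% higher and 5.75% lower. At stage 7 against stage 6, 5 were called, all higher, against 27.3% of genes tested, 15.5% higher and 11.8% lower. At stage 8 against stage 7, 23 were called, all lower, against 32.0% of genes tested, 15.1% higher and 16.9% lower. Of the 200, 170 were called at no step, 23 at 1 step, 6 at 2 and 1 at all 3, against 46.1%, 32.8%, 17.2% and 3.89% of all genes tested. The smallest change called was 0.26 on the log2 scale. The median absolute change of the 200 was 0.10, 0.08 and 0.12 at the steps in order. Over all genes tested the median was 0.33, 0.44 and 0.46, but these include genes of low counts. The other 5454 genes of at least 50 CPM are the closer background. Their median absolute change was 0.26, 0.32 and 0.35, and 28.73%, 37.99% and 44.46% of them were called at the steps in order.

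The single direction at each step depended on the scaling. TMM factors averaged 1.05, 0.99, 0.93 and 1.01 from stage 5 to stage 8, so levels at stage 7 stand higher on the TMM scale than in CPM. The median log2 change of the 200 genes at stage 8 against stage 7 was -0.09 with TMM and 0.02 with column totals, while the median over all genes was 0.01 and 0.13. At stage 7 against stage 6 the median of the 200 was 0.04 with TMM and -0.06 with column totals. With column totals, the scale on which the genes were chosen, 3 genes were called higher and 1 lower at stage 6 against stage 5. At the next step the counts were 1 higher and 1 lower, and at the last 8 higher and 5 lower. Over all genes tested the split also turned with column totals, to more lower at stage 7 against stage 6 and more higher at the last step. Those all-gene counts are given in the closing section, and the counts of the 200 are read next to them. RLE size factors, taken from the median ratio of each library to a mean library, gave 3 higher and 11 lower at the last step. The median with RLE was -0.04 in the 200 and 0.07 over all genes. At that step the median of the 200 thus lay below the median over all genes with TMM, with column totals and with RLE.

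Single members that passed the threshold moved little. For the members named here, log2 fold changes and SEs are on the TMM scale. Their CPM values and overlaps use column totals, so a fold change can be larger than the CPM beside it gives. OsIR64_01g0016000 rose at stage 6, with 177, 178 and 171 CPM in the mutant and unresolved libraries and 166 and 169 CPM in wild type. At stage 5 its 6 libraries ran from 130.3 to 142 CPM with a median of 133 CPM, so the stages did not overlap, and its log2 fold change was 0.43 (SE 0.08). OsIR64_10g0016300 rose at the same step by 0.37 (SE 0.10). It averaged 59.6 ± 6.70 CPM at stage 6 (SD, n = 5) and 48.6 ± 3.52 CPM at stage 5 (n = 6), with 1 stage 6 value inside the stage 5 range. Its call was lost without mutant stage 6 replicate 1 (edgeR adjusted p = 0.0504), the highest over its 27 alternatives.

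OsIR64_02g0029550 rose at stage 7, to 117 CPM in the mutant, 129 CPM in wild type and 126 and 111 CPM in the unresolved libraries. At stage 6 it had 92.6 and 91.3 CPM in the mutant, 95.1 and 109.8 CPM in wild type and 86.2 CPM in the unresolved library. The stages did not overlap, and the log2 fold change was 0.44 (SE 0.12). The call was lost in 1 of 27 alternatives, the 8-group fit described below (edgeR adjusted p = 0.0588). OsIR64_03g0036820 rose at this step by 0.35 (SE 0.12), with 56.8 ± 4.60 CPM at stage 7 (SD, n = 4) and 47.4 ± 3.41 CPM at stage 6 (n = 5). Its call was lost in 7 of 27 alternatives, with edgeR adjusted p up to 0.208 in the 8-group fit. The others were column totals (adjusted p = 0.0796) and the fits without mutant stage 6 replicate 2, shared stage 6 replicate 3, mutant stage 7 replicate 1, shared stage 7 replicate 3 or wild type stage 7 replicate 1.

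OsIR64_09g0016650 fell at stage 8 by 0.44 on the log2 scale (SE 0.10). It had 68.8, 48.6 and 59.9 CPM in the mutant and 55.2, 58.0 and 64.5 CPM in wild type at stage 8. At stage 7 it had 85.2 CPM in the mutant, 64.3 CPM in wild type and 74.6 and 72.0 CPM in the unresolved libraries, so the stages overlapped. OsIR64_10g0020850 fell by 0.40 (SE 0.12), with 201 ± 24.3 CPM at stage 8 (SD, n = 6) and 247 ± 22.5 CPM at stage 7 (n = 4), and these ranges overlapped as well. Both kept their call and direction in all 27 alternatives.

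Mutant and wild type differed little in the steadiest genes. In a fit of the 18 libraries of resolved genotype to 8 groups, the genotype difference averaged over the stages ran from -0.21 to 0.20 on the log2 scale among the 200. The median absolute difference was 0.05 in the 200, 0.12 in the other 5454 genes of at least 50 CPM and 0.22 over all genes tested. None of the 200 was called in edgeR, where 0.0549% of 25483 genes and 1 (0.0183%) of the other 5454 genes were. Of the 200, 9 had an unadjusted p under 0.05, as did 2956 of all genes tested. The 9 became 1 with column totals and 16 with all 24 columns. DESeq2, which called 371 genes in all, called 0 of the 200, with 13 at an unadjusted p under 0.05. Since a steady level over both genotypes was the rule, this count is no evidence on the edit.

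By stage, the median absolute log2 difference between mutant and wild type in CPM was 0.07 at stage 5, 0.12 at stage 6, 0.11 at stage 7 and 0.09 at stage 8 among the 200. In the other genes it was 0.14, 0.18, 0.26 and 0.20. In CPM the mutant was higher in 91, 125, 106 and 102 of the 200 genes from stage 5 to stage 8. This balance depended on the scaling. In the TMM fit averaged over stages the mutant was higher in 72 and lower in 128, with a median log2 difference of -0.03, against 0.02 with column totals. The widest difference of a member was 0.55 at stage 6 and 0.53 at stage 7, where 2 and 1 libraries stood for each genotype. The same sign at all 4 stages was seen in 35 of the 200, 20 higher and 15 lower in the mutant, against 22.04% of the other genes.

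The 200 genes did not share a single pattern of change, with differences between stages left in. Over 19900 pairs of genes, the correlation of log2 CPM over the 21 libraries had a median of 0.03 and ran from -0.82 to 0.84, and beyond 0.7 in size it was positive in 77 pairs and negative in 36. The libraries share stages and replicates, so these are descriptions. The first principal component of the 200 took 14.6% of the variation with each gene scaled to equal variance, against 47.1% for the other genes. In the unscaled values the first and second components of the 200 were nearly equal, at 15.2% and 14.9%.

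Whether the rule picks genes that are also steady in libraries it has not seen was examined by repeating it on part of the libraries. A list of 200 chosen on the 9 mutant libraries had a median CV of 9.53% there and 12.6% in the 9 wild-type libraries, where the other genes had 27.9%. A list chosen on the 9 wild-type libraries had 8.88% there and 12.8% in the mutant, where the other genes had 28.1%. The mutant and wild-type lists shared 61 genes, of which 58 were among the 200, and each list kept 109 and 116 of the 200. A list chosen on the 18 libraries of resolved genotype kept 171 of the 200. In the 3 unresolved libraries, which took no part in that choice, its median CV was 7.28%, against 17.4% in the other genes. The unresolved libraries come from stages 6 and 7 only, so the 7.28% does not span all stages. The values above are medians, and single chosen genes were far less steady in libraries that took no part. The highest CV of a chosen gene was 28.8% in wild type, 43.3% in the mutant and 41.4% in the unresolved libraries.

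**Figure D5:**
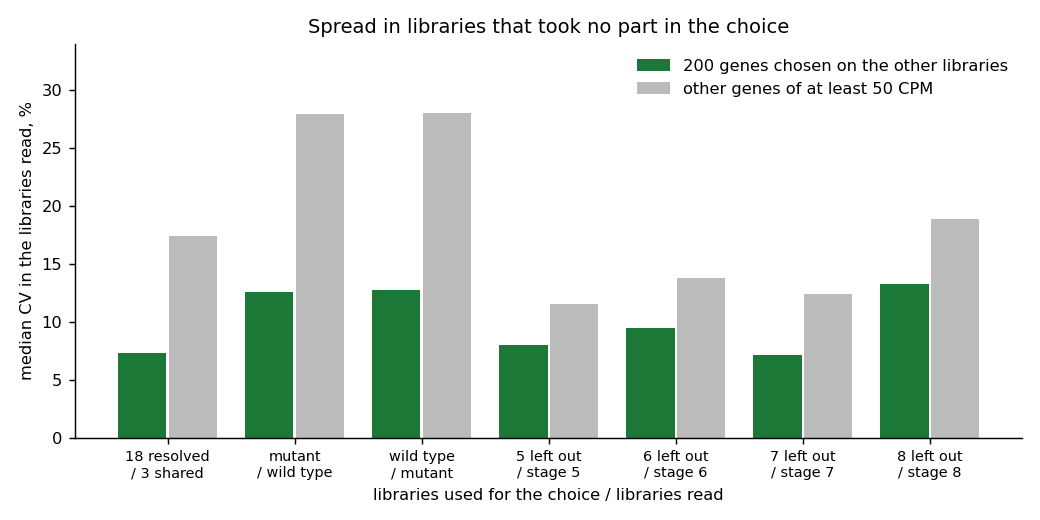
Median CV (%) in libraries that took no part in the choice, for 200 genes chosen by the same rule on the remaining libraries (green, left bars) and for other genes of at least 50 CPM (grey). In the 7 choices the chosen genes have medians of 7.13% to 13.3% and the others 11.6% to 28.1%. The CVs do not cover the same spread. Lists chosen on 1 genotype are read in the other across all stages. Lists chosen without a stage are read within that stage, so change between stages is absent. The libraries of unresolved genotype come from stages 6 and 7 only. Green is therefore set beside grey within a pair, and not between choices. The highest CV of a single chosen gene runs from 23.8% to 43.3% by choice.

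Leaving out stage 8 changed the list more than leaving out any other stage. A list chosen without stage 8 kept 96 of the 200, and its stage 8 means lay a median of 12.7% from the means of the libraries used, against 28.9% for the other genes. The list chosen without stage 5 kept 128, with a shift of 10.9% against 29.8%. Without stage 7 it kept 144, with 9.66% against 22.9%, and without stage 6 it kept 165, with 5.17% against 14.7%. Not every chosen gene held its level. The shift stayed within 20% for 137 of the genes chosen without stage 8 and 159 of those chosen without stage 5. It did so for 173 without stage 7 and 196 without stage 6. Over the stage 8 libraries the CV of a gene chosen without them reached 41.9%. Of the 200 genes, 66 were in all 4 of these lists, and 140 were in all 21 lists that left out 1 library. The 4 lists overlap in the libraries they use, so they are not independent.

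The membership also depended on the scale. On the TMM scale the 200 genes had a median CV of 10.99% (5.71% to 16.6%), against 27.3% in the other genes, and 125 of them were picked again. With DESeq2 size factors 122 were picked again. Their summed level had a CV of 5.10% on the TMM scale, against 1.90% in CPM, with stage means of 24978 ± 594, 26776 ± 573, 27575 ± 525.6 and 25369 ± 1397 (SD, n = 6, 5, 4 and 6) from stage 5 to stage 8. On that scale the sum was highest at stage 7, and in CPM at stage 6.

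The identifiers carry a number from 1 to 12, which the files do not define, except 37 marked Un, none of which reached 50 CPM. All 12 numbers occurred among the 200 genes. The share of genes of at least 50 CPM that were among the 200 ran from 2.01% under number 7 (9 of 448) to 4.76% under number 8 (19 of 399), around 3.54% in all. In the order of the table, 3 pairs of the 200 stood on adjacent rows. OsIR64_02g0032720 and OsIR64_02g0032730 had a correlation of CPM over the 21 libraries of 0.79, and the other pairs had -0.28 and -0.20. Overlap or shared reads between neighbours was not tested.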

How the data were processed

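The authors deposited raw whole-number counts. Their design text names trimmed paired reads, alignment to an IR64 genome by STAR, and gene counting by HTSeq with high-confidence IR64 models. Trimmomatic 0.39 and kallisto are listed, without a role, per the submitters' processing notes. The sources used here give no strand setting, annotation version or treatment of shared reads, so counts of paralogs and overlapping genes are uncertain. No row lacked an identifier.

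The genes and lists were chosen with earlier results of these data known. CPM used column totals. Stages were compared in a fit of 21 libraries to 4 groups and genotypes in a fit of 18 libraries to 8 groups, with edgeR 4.0.16 (R 4.3.3), TMM and filterByExpr, across all genes. SEs came from the fold change and its F statistic. The design text calls the replicates independent, and p-values set a change against the spread between these libraries. The stage fit had no genotype term, so its spread includes differences between genotypes as well as between replicates. The fits were tested on simulated counts with known folds. Named genes were those of lowest CV, of highest mean CPM, next to the limit of 200, and up to 2 called members each way per comparison.

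Alternatives were other scalings (RLE, column totals, DESeq2 1.42.0 size factors), no filter, DESeq2, a replicate block, other sets of libraries, other measures of spread and other minimum levels.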

Additional observations from a re-analysis of the deposited data

Results flagged for a closer look

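No result was far enough from its group to be listed. In 60 groups of 4 to 6 libraries of 1 stage (14 named genes and the summed level of the 200), no library stood apart by Dixon's criterion, which chance passes in about 5% of groups. The interaction counts that follow are a description of the 200, since choice by low spread over these libraries limits an interaction in advance. Stage 7 entered that fit with 1 library of each resolved genotype. A genotype by stage interaction test called 0 of the 200 genes in edgeR, with 0 at an unadjusted p under 0.05, and 0 of 25483 genes, with 1309 at an unadjusted p under 0.05.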

How the results depend on the processing

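The rule picked 125 of the 200 genes again on TMM sizes, 122 with DESeq2 size factors, 109 with the interquartile range over the median, 98 with a minimum of 100 CPM, 109 in mutant and 116 in wild-type libraries alone, 128 without stage 5 and 96 without stage 8. It picked 193 after removal of the counting part, 171 with a minimum of 20 CPM, 183 with all 24 columns and 153 to 192 without 1 library.

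Members called at stage 6 against stage 5 numbered 10 in the report, 4 with column totals, 6 with no filter, 2 in the 8-group fit and 7 to 14 without 1 library. At stage 7 against stage 6 they numbered 5, with 2, 3 and 0 in these fits. They were 2 without mutant stage 6 replicate 2, shared stage 6 replicate 3 or shared stage 7 replicate 3, 3 in 8 other fits that left out 1 library, and 7 at most. At stage 8 against stage 7 they numbered 23, with 14 by RLE, 13 by column totals and 4 in the 8-group fit. They were 15 when mutant replicate 1 of stage 7 or of stage 8 was left out, 12 without shared stage 7 replicate 2, and 28 at most. The count for the genotypes was 0 in every fit run. The replicate block gave 10, 4, 21 and 0 members. Same-numbered mutant and wild-type libraries correlated at -0.10 to 0.33 across genes, so the numbers were not taken as pairs. The 8-group fit has fewer libraries.

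All genes called numbered 6282 at stage 7 against stage 6, but 3821 in the 8-group fit and 4114 to 7473 without 1 library (4114 without wild type stage 7 replicate 1). At stage 8 against stage 7 they numbered 7358, but 3590 in the 8-group fit and 5583 to 7441 without 1 library. At stage 6 against stage 5 they numbered 4504, and 3508 to 5407 without 1 library. Between genotypes 14 genes were called, but 371 by DESeq2, 5 with all 24 columns and 8 to 484 without 1 library. The last range ran from mutant stage 6 replicate 2 (8) over mutant stage 5 replicate 3 and mutant stage 6 replicate 1 (9 each), wild type stage 5 replicate 1 (28) and wild type stage 6 replicate 1 (53) to mutant stage 8 replicate 3 (484). With column totals the split of higher and lower genes was 2742 and 1937, against 3181 and 1323 with TMM, at stage 6 against stage 5. It was 3113 and 3657, against 3575 and 2707, at the next step, and 4553 and 3110, against 3472 and 3886, at the last. Between genotypes it was 6 and 6, against 5 and 9. The causes were not tested. Without replicates at stage 7 in either resolved genotype, spread there rests on the shared libraries.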
